A study of Mus musculus with 4 samples.

Results

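The circadian clock genes Per1, Per2, Per3, Cry1, Cry2, Clock, Bmal1 and Dbp were examined in the testis of hypogonadal (hpg) mice. The 8 genes were chosen by name with earlier results of these arrays in view, Per1 above all, so that their differences between T+T and T+O are a description and carry no test. Every probe set with 1 of these symbols as its single gene was taken, which gave 10 of the 12422 probe sets on the arrays. Bmal1 is written Arntl in the annotation. Of the 10, 5 were bright enough to pass the filter on dim values, 1 each for Per1, Per3, Cry1, Cry2 and Dbp. The other 5 were those of Per2, Clock and Bmal1 and 2 further probe sets of Cry1.

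All animals were hpg mice, which lack gonadotropin-releasing hormone and make little androgen of their own, and all had received testosterone propionate (TP), an injected testosterone ester, followed by its withdrawal. The T+O group was 1 array, from testes given TP for 2 weeks and then withdrawn. The T+T group was 3 arrays. Replicate 1 was described as pretreated, withdrawn and then given TP again for 4 hours, with no length stated for the pretreatment. Replicates 2 and 3 carried the T+T title, but their descriptions named only the 2 weeks of TP and the withdrawal, so their second treatment rests on the title. Total RNA of whole testis was hybridised to 1 array per sample. The labels gave no age, strain background, number of animals per array or hour of collection, and no untreated hpg or normal testis was among the 4 arrays.

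The molecular clock is a feedback loop of transcription. CLOCK and BMAL1 bind E-boxes as a pair and switch on the Per and Cry genes, whose proteins return to the nucleus and hold that pair back. The same pair drives Dbp, whose protein acts through D-boxes, while orphan nuclear receptors bind ROR elements and set the level of Bmal1. In most tissues these transcripts rise and fall over the day, with Bmal1 opposite in phase to Per and Dbp. The testis is known as an exception, in which clock transcripts cycle weakly or not at all and Per1 is present in developing germ cells. Steroid hormones can induce Per1 in other tissues.

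The motifs through which the loop is known to act can be looked for as letters in the promoters of the members. Sites outside the windows searched were not covered. RefSeq windows on GRCm38.p6, from 250 bases before to 50 bases after a start, were available for 7 of the 8 genes. Letters were searched on both strands for the E-box CACGTG, the related CACGTT, the D-boxes TTATGTAA and TTACGTAA, the ROR core TAGGTCA, the cyclic AMP element TGACGTCA and the steroid receptor core TGTTCT. No match overlapped another in the windows printed. Capitals mark the matches, each of which is a match of letters and no measure of binding. The windows are Per1 at chr11:69098699-69098998 (+ strand), Cry1 at chr10:85185005-85185304 (- strand), Per3 at chr4:151044616-151044915 (- strand) and Bmal1 at chr7:113207261-113207560 (+ strand).
Per1: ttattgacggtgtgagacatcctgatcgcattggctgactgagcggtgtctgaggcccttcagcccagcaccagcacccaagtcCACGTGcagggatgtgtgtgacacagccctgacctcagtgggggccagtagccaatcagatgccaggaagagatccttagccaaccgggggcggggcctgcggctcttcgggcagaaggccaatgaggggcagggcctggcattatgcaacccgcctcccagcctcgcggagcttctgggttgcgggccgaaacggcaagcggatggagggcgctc
Cry1: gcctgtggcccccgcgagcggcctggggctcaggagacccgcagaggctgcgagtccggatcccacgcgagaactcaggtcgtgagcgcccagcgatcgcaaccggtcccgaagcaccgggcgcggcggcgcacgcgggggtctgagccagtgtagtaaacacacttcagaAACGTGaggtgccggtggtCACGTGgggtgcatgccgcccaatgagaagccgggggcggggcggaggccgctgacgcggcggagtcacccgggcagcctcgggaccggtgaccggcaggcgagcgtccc
Per3: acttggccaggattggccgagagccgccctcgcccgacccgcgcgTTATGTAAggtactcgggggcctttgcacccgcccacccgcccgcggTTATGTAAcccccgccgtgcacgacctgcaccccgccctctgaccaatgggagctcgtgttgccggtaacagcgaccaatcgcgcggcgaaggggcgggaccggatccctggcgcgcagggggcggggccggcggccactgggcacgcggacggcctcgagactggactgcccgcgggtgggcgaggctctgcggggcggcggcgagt
Bmal1: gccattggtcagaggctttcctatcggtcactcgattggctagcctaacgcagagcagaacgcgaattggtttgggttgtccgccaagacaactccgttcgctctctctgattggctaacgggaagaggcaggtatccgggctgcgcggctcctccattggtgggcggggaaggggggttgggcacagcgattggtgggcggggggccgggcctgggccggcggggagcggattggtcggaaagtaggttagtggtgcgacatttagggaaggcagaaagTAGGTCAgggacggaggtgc

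Per1 held 1 E-box, starting at position -166 from the start. Cry1 held an E-box at -60 and, read on the other strand, a CACGTT at -79. The E-box was present in 7.15% of all 32851 windows in the table and CACGTT in 4.68%. Per3 had D-boxes at -205 and -158, a motif found in 1.06% of windows. The Bmal1 window had the ROR core at 31 bases after the start, against 2.61% of windows. Cry2 had a CACGTT at -166, again on the other strand. The Dbp window, the 3 Clock windows, a second Per1 window and a second Bmal1 window held none of these letters. No window of a member held the cyclic AMP element, present in 1.79% of all windows, or the steroid receptor core, present in 19.0%.

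Signals are given after each array was multiplied by 1 factor that brought its trimmed mean to a common level. Log2 differences are T+T minus T+O on the log2(scaled signal + 10) scale, which understates the change of dim probe sets. The filter kept probe sets whose mean over the 4 arrays was above a scaled signal of 22.7. In bulk testis, fewer cells of a type and less RNA per cell cannot be told apart.

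**Figure D1:**
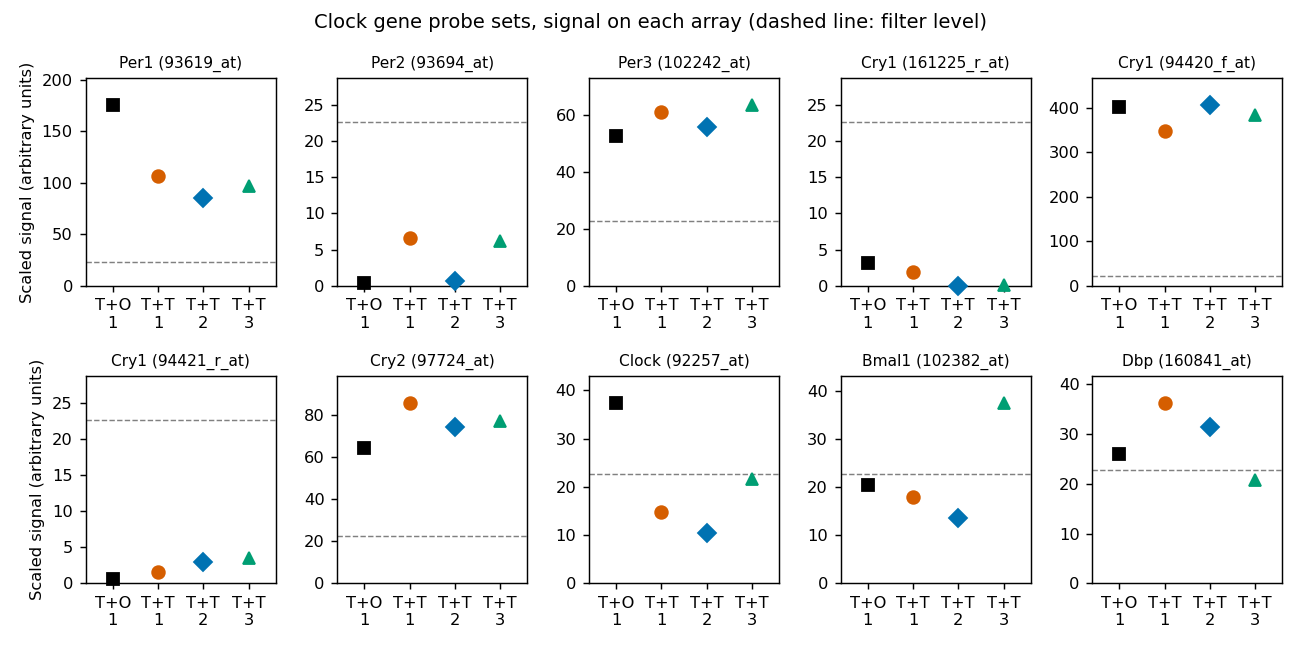
Scaled signal (vertical axis, arbitrary units, from 0) of the 10 clock gene probe sets on the T+O array and the 3 T+T arrays, 1 point per array, with the filter level of 22.7 dashed. Per1 and Clock have T+O as the highest point, Per3 and Cry2 have it as the lowest of 4, and Bmal1 and Dbp have it inside the T+T points.

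Of the Period genes, which encode the repressors of the loop, Per1 had the widest gap between T+O and T+T among the kept members. Its scaled signals were 175 on the T+O array and 106, 85.4 and 97.0 on T+T replicates 1, 2 and 3. T+O stood above every T+T array, and the T+T arrays lay close together at 96.2 ± 10.4 (SD, n = 3). The T+T arrays were 1.59-, 1.94- and 1.73-fold below T+O on the offset scale, a mean log2 difference of -0.81. Per1 was the 1 member of the 5 kept for which every T+T array was lower by 1.5-fold or more, a rule that 2.21% of the 7453 kept probe sets met. The rule was met by 1.82% of probe sets in the higher direction and by no member. With the values as deposited, where T+T replicate 3 read 124.5 against 191.6 on T+O, and with a larger offset, Per1 no longer met it.

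The other Period genes did not share this pattern. Per3 had 52.6 on the T+O array and 61.2, 55.9 and 63.4 on the T+T arrays. T+O was the lowest of the 4, but the nearest T+T array was within a few units of it, and the mean log2 difference was 0.16, with an SD of 0.081 over the T+T arrays. Without scaling that difference became -0.010, so its direction depends on how the arrays are brought to one level. Per2 was dim throughout, with 0.366 in T+O and 6.56, 0.663 and 6.16 in T+T. All 4 values lay far below the filter, so these data give no usable level for Per2 on any array.

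The Cryptochrome genes encode the partners of the Period proteins in repression. Cry2 had 64.2 on the T+O array and 85.6, 74.2 and 77.3 on the T+T arrays. T+O was again the lowest, at a mean log2 difference of 0.26 with an SD of 0.094 over the T+T arrays, and no T+T array was 1.5-fold away. Among the 5 kept members, T+O stood outside the range of T+T in 3, above it for Per1 and below it for Per3 and Cry2. Over all kept probe sets T+O was above all T+T arrays in 23.7% and below them in 29.5%.

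Cry1 was read by 3 probe sets that do not report the same thing. The one that passed the filter had 401 in T+O and 348, 405 and 384 in T+T. T+O lay within the T+T values and the mean log2 difference was -0.082. The suffix of its name, f, marks probes shared within a gene family, so its signal may include other transcripts. The other probe sets, both with the suffix r, had values near 0. One had 3.20, 1.96, 0 and 0.078, and the other had 0.549, 1.61, 2.92 and 3.51 on T+O and T+T replicates 1, 2 and 3. The first of them was highest in T+O and the second lowest, at levels where such an order has no weight. Cry1 is therefore described here by a single family probe set.

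Clock and Bmal1 encode the activators. Both lay just below the filter, with means of 21.0 and 22.3 over the 4 arrays, while Dbp lay just above it with 28.5. Clock had 37.3 on the T+O array and 14.7, 10.3 and 21.6 on T+T replicates 1, 2 and 3. T+O was above all T+T arrays, and above the filter level where none of them was. The T+T arrays were 1.91-, 2.33- and 1.498-fold lower, so that replicate 3 lay just outside the 1.5-fold rule. The mean log2 difference was -0.91 with an offset of 10, -1.27 with an offset of 1 and -0.52 with the larger offset, which shows how far the size rests on this choice for a dim probe set.

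Bmal1, the partner of Clock, had 20.4 on the T+O array and 17.9, 13.5 and 37.4 on the T+T arrays. T+T replicate 3 alone was high, T+O lay inside the T+T range, and the mean log2 difference was 0.050 with an SD of 0.53 over the T+T arrays. Without T+T replicate 3 it became -0.25. Bmal1 gives no direction in these arrays.

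Dbp, the output gene of the loop and a common readout of clock phase, had 25.9 on the T+O array and 36.1, 31.3 and 20.7 on the T+T arrays. T+O lay between T+T replicates 2 and 3, and the mean log2 difference was 0.11 with an SD of 0.30. The Dbp value was near the filter level on T+T replicate 3. Per1 was lower on every T+T array while Dbp, a dim probe set, had T+T arrays on both sides of T+O. In other tissues both are driven through E-boxes, and any part of E-boxes in these values was not tested.

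**Figure D2:**
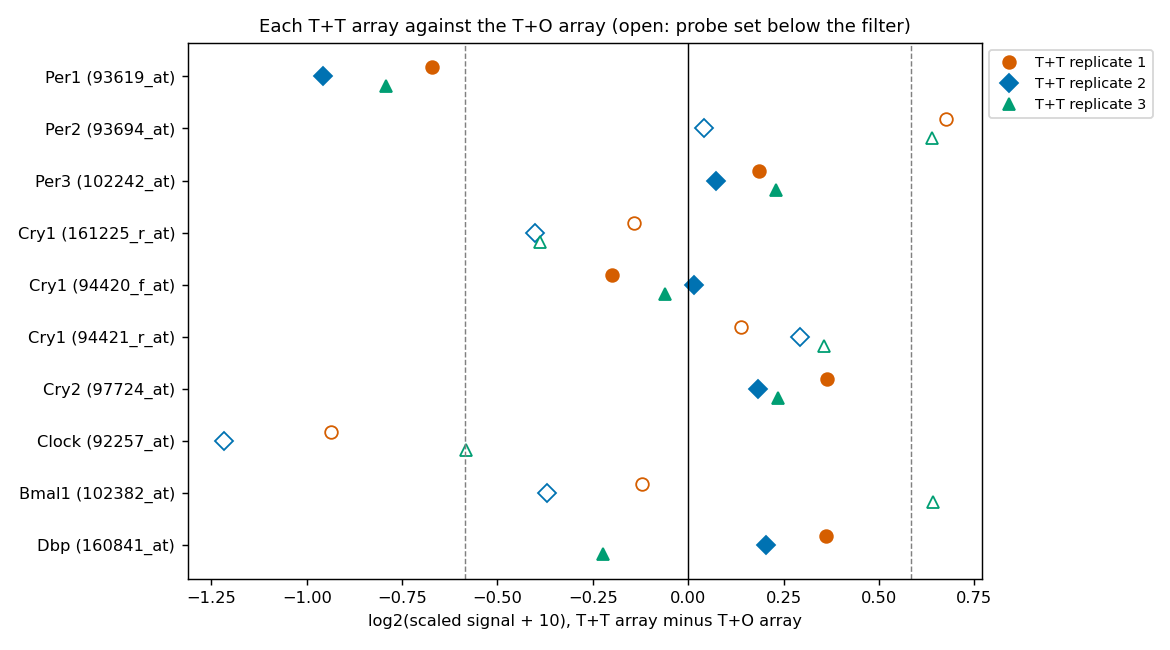
Difference of each T+T array from the T+O array (horizontal axis, log2 of scaled signal plus 10) for each clock gene probe set, with filled points for probe sets above the filter, open points for those below it and dashed lines at 1.5-fold. All Per1 points lie left of the 1.5-fold line, 2 of the 3 Clock points do, and the points of the other kept members lie between the lines.

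Across the 5 kept members the median log2 difference was 0.11, beside 0.026 over all kept probe sets. By array it was 0.19, 0.073 and -0.060 for T+T replicates 1, 2 and 3, beside 0.038, 0.015 and 0.038. Of the 5 members 2 lay below T+O on average, against 46.3% of all kept probe sets. Per1 was thus apart from the other 4, which lay between -0.082 and 0.26.

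The pair of arrays whose titles and descriptions match, T+T replicate 1 and T+O replicate 1, can be read without the uncertain labels. It is 1 array against 1 array, with no replicate check. Per1 was 1.59-fold lower in T+T replicate 1, the single kept member at least 1.5-fold apart, where 11.0% of kept probe sets were lower and 6.83% higher by as much. That is 820 lower and 509 higher probe sets, a split that became 1687 lower and 185 higher with the values as deposited. Cry2 lay higher by 0.37 on the log2 scale, Dbp by 0.36 and Per3 by 0.19, while the kept Cry1 probe set lay lower by 0.20. Below the filter, Clock was lower by 0.94 and Bmal1 by 0.12.

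Replicates 2 and 3 of T+T can also be taken as withdrawn, as their descriptions allow, and the comparison is then T+T replicate 1 against the other 3 arrays. Per1 then differed by -0.089 on the log2 scale, because replicates 2 and 3 had low Per1 signals like replicate 1. No kept member was 1.5-fold lower on T+T replicate 1 than on all 3 others, which 2.09% of kept probe sets were. Under this reading the Per1 pattern sets the T+O array apart from the rest rather than the array with the stated 4 hours of TP. Dbp was at 0.37, Cry2 at 0.23, Per3 at 0.085 and Clock at -0.34.

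**Figure D3:**
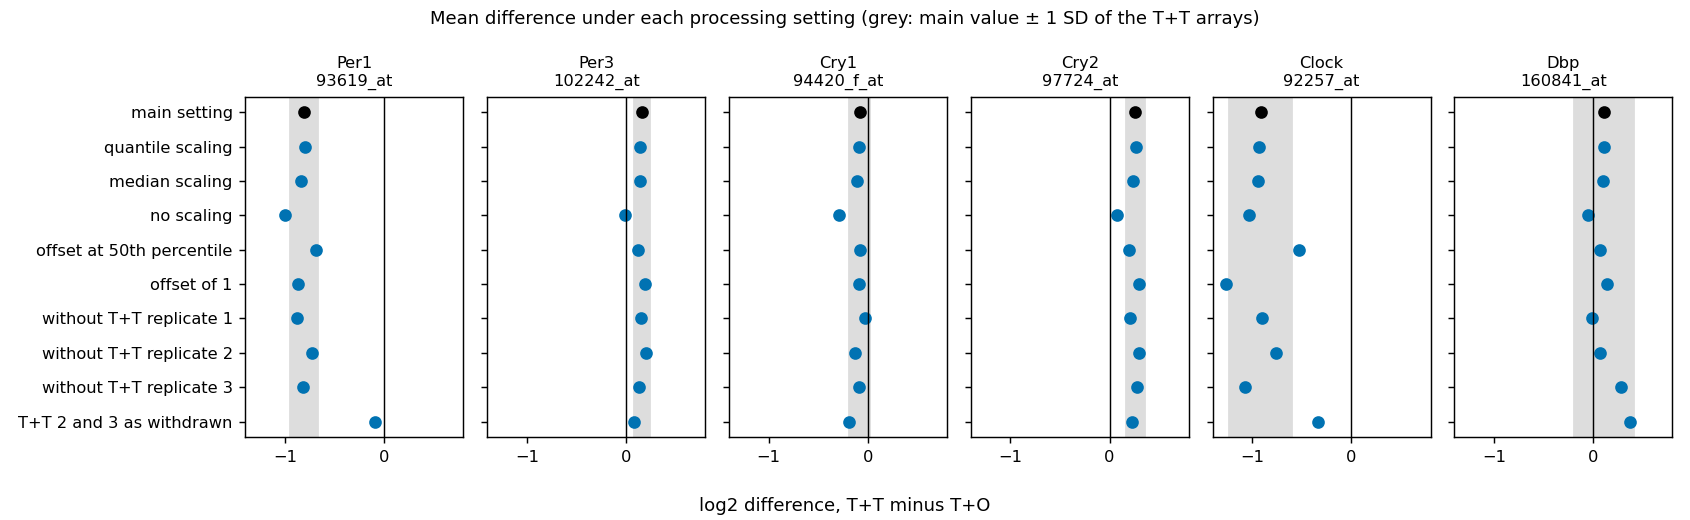
Mean log2 difference T+T minus T+O (horizontal axis) of 6 clock gene probe sets under each processing setting (rows), the main value in black, the others in blue, and a grey band of 1 SD of the T+T arrays around the main value. Per1 lies left of 0 in every row, from -0.9998 without scaling to -0.089 with T+T replicates 2 and 3 taken as withdrawn. In that withdrawn row the difference is T+T replicate 1 minus the mean of the other 3 arrays, not T+T minus T+O.

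Some array-wide measures differed between T+O and the T+T arrays in the same direction as Per1 and Clock. Others lay the other way or had T+O inside the T+T values. The ratio of 3′ to 5′ control signal was 1.20 on T+O and 0.886, 0.837 and 0.809 on T+T for Gapdh, and 3.76 against 1.93, 2.00 and 1.76 for pyruvate carboxylase. For Actb it was 1.53, inside the T+T values of 1.66, 1.40 and 1.17. The summed signal of 5 spermatogonial markers, all 5 listed, was 594 in T+O and 523 to 571 in T+T, and that of 2 of 5 adipose markers was 339 against 231 to 321. Of these 2, Lipe had 260 in T+O and 229, 141 and 187 in T+T. Adipoq had 79.1 against 91.9, 89.7 and 76.2, on both sides of T+O. The sums of 5 of 5 peritubular markers (431 against 520 to 536), 5 of 6 macrophage markers (322 against 393 to 406), 3 of 6 endothelial markers (179 against 195 to 271), 3 of 4 red blood cell markers (544 against 563 to 620) and 10 of 13 Sertoli markers (2574 against 2654 to 2996) lay the other way. The sums of 6 of 8 Leydig, 6 of 8 spermatocyte, 8 of 8 spermatid and 1 of 3 epididymal markers had T+O inside the T+T range. Such sums weigh bright genes most, and single markers differed from them. Uchl1, the brightest spermatogonial marker, had 288 in T+O and 359, 357 and 340 in T+T, opposite to the spermatogonial sum. Sycp1, of the synaptonemal complex of meiotic spermatocytes, had 390 in T+O and 13.5, 38.5 and 36.2 in T+T, the lowest log2 difference (-3.42) of all kept probe sets, while the spermatocyte sum was led by Ldhc with 5073 in T+O. Dazl, a germ cell RNA-binding protein, had 166 in T+O and 63.5, 79.2 and 103 in T+T, and the Sertoli gene Kitl, which encodes the ligand of Kit, had 49.9 against 14.4, 12.6 and 17.4. Dazl is also part of the spermatogonial sum and had the widest drop in signal of its genes, so the 2 are not separate observations. Sycp1, Dazl and Kitl were chosen after their values were seen, and all lay in the direction of Per1 on every T+T array. Most other markers of their lists did not. Of the kept markers, 9 of 10 Sertoli and 5 of 6 spermatocyte genes were above T+O on average, all but Kitl and Sycp1. Of the 5 spermatogonial markers, 2 were above T+O and 3 below. No probe set of a listed marker was at 0 on any array, and the spermatid genes Prm1 and Tnp2 had T+O signals of 7912 and 7942, both being markers of late spermatids. The part of RNA quality and cell make-up in the Per1 and Clock values was not tested.

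The genes whose profile over the 4 arrays lay nearest to that of Per1 were sought among 5672 other named genes. The measure was the root mean square difference of log2 values, each profile centred on its own mean, so that 0 is an identical profile. The nearest were Trim59 at 0.068, Rhou at 0.074, Unc13b at 0.079, Bcl3 at 0.085 and Recql5 at 0.087, and 10 genes lay within 0.1, against a median distance of 0.42. Trim59, a tripartite motif protein, had 57.3 in T+O and 35.5, 24.5 and 33.2 in T+T. Rhou, a small GTPase, had 68.0 against 41.9, 36.1 and 39.9. Unc13b, a vesicle priming factor, had 49.6 against 24.8, 17.9 and 19.6, Bcl3, a nuclear cofactor of NF-kappaB, had 42.1 against 21.4, 20.2 and 21.7, and Recql5, a DNA helicase, had 70.5 against 34.5, 29.9 and 38.1. All are genes with T+O high, as the measure over 4 arrays with a single T+O array requires.

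**Figure D4:**
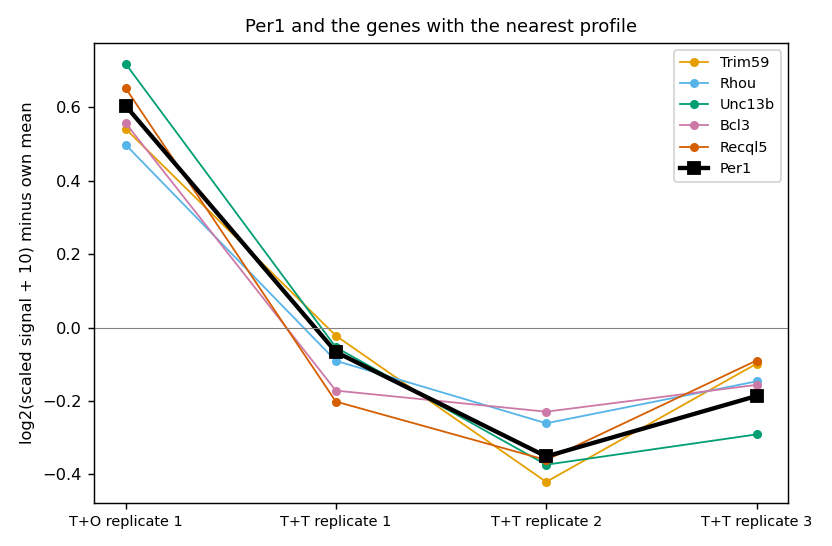
Profiles of Per1 (black squares) and the 5 nearest genes over the 4 arrays (vertical axis, log2 of scaled signal plus 10, minus the gene's own mean), with lines joining the points of a gene. Per1 and all 5 neighbours have their highest point on the T+O array and their lowest on T+T replicate 2.

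The flatter members had closer neighbours, since many genes vary little. For Per3 these were Slc35b1 at 0.011 and Tmem208 at 0.012, for the kept Cry1 probe set Srsf4 at 0.0053 and Zfp93 at 0.012, and for Cry2 Guca1a at 0.010 and Saa2 at 0.014. For Dbp they were B4galt3 at 0.0077 and Saysd1 at 0.020. Within a distance of 0.1 there were 694 genes for Per3, 552 for Cry1, 533 for Cry2 and 214 for Dbp.

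The wider clock pathway was read from a list of 62 genes in 6 roles, of which 46 had a named probe set and 38 a probe set above the filter. None of the 38 passed the limma test after adjustment over all probe sets, which 0.0268% of kept probe sets did. At an unadjusted p under 0.05 there were 3 of 38, with 2 lower and 1 higher in T+T, beside 7.8% of kept probe sets (581 of 7453, 315 lower and 266 higher), and no other tool was run. The lowest adjusted p was 0.40 in limma. Their median log2 difference was 0.037, with 20 above and 18 below T+O. By the 1.5-fold rule 2 of the 38 (5.26%), Ppp1cb and Noct, were lower and none was higher, beside the 2.21% and 1.82% of kept probe sets given above. Each of the 38 was read by its brightest probe set, whereas shares of kept probe sets count every probe set of a gene. Among all 5677 genes read by their brightest probe set, 2.34% were lower and 1.48% higher by this rule.

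Ppp1cb, a catalytic subunit of the protein phosphatase that acts on PER proteins, had 152 in T+O and 37.8, 51.5 and 86.1 in T+T. All T+T arrays were below T+O, at -1.30 ± 0.37 on the log2 scale (limma estimate ± SE, adjusted p = 0.40). Noct, a rhythmic output gene that encodes nocturnin, had 244 in T+O and 112, 74.8 and 148 in T+T on a family probe set, -1.11 ± 0.33 on the log2 scale (limma estimate ± SE, adjusted p = 0.43). The second Noct probe set read 112 in T+O and 121, 109 and 161 in T+T, a difference of 0.19, so the direction for this gene is uncertain.

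Inside the loop itself, 5 of 11 listed genes were kept, and none was 1.5-fold from T+O to the same side on all T+T arrays. Nr1d1, the REV-ERB repressor of Bmal1 and an E-box target, had 120 in T+O and 131, 138 and 142 in T+T, which differ by 0.17. Its relative Nr1d2 had T+T signals of 11.96, 21.0 and 43.8 on either side of a T+O signal of 23.8, so that its mean of -0.025 hides a wide spread. Rora, which activates Bmal1 through the ROR element, was at 0.057, and Tipin, a replication fork protein and partner of Timeless, at 0.29. Npas2, the stand-in for Clock, and Bhlhe40 were below the filter.

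The output factors are known to act through D-boxes, the motif whose letters were matched in the Per3 window. Whether they act on those matches was not tested. Tef, an activator related to Dbp, had 49.9 in T+O and 19.9, 23.0 and 37.7 in T+T, a difference of -0.73, and Nfil3, which represses through the same element, was at -0.17 on a family probe set. Tef was below T+O on all T+T arrays, while Dbp was not.

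Among 12 kept genes for kinases, phosphatases and protein turnover, 6 lay on each side of T+O. After Ppp1cb the lowest was Cul1, the scaffold of the ubiquitin ligases that degrade PER and CRY, at -0.38. The highest were the casein kinase subunit Csnk2a2 at 0.24 and the F-box gene Btrc at 0.19. Other probe sets of these 2 genes lay lower, at -0.56 and -0.0042 for Csnk2a2 and -0.23 for Btrc. Of 6 coregulators, the acetyltransferase Kat2b was lowest at -0.50 and the RNA-binding gene Sfpq followed at -0.19, with Kmt2a at 0.13 and Wdr5 at 0.060 on the other side. Second probe sets of Kat2b and Kmt2a differed by 0.20 and -0.39, opposite in sign to the first.

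Of 7 output genes, Cirbp, a cold-inducible RNA-binding protein, had 612 in T+O and 800, 777 and 835 in T+T. It was above T+O on all T+T arrays by 0.39 ± 0.17 on the log2 scale (limma estimate ± SE, adjusted p = 0.64). Ppara was at 0.49 and the mitotic kinase gene Wee1 at -0.42. Of 6 genes for steroid and cyclic AMP inputs to Per1, Creb1 was at 0.55, with a second probe set at -0.12, and Sgk1 at 0.28. The steroid-responsive gene Tsc22d3 was at -0.28, with 27.8 in T+O and 38.2, 15.8 and 14.5 on T+T replicates 1, 2 and 3. It was thus above T+O on replicate 1 and below it, at dim signals, on the others. Crem, the cyclic AMP factor of spermatids, was at -0.25, with 45.5 in T+O and 44.1, 26.4 and 42.3 in T+T. A second Crem probe set was at -0.61. By mean difference these 6 genes lay on both sides of T+O while Per1 lay below it, and a link between them and Per1 was not tested.

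**Figure D5:**
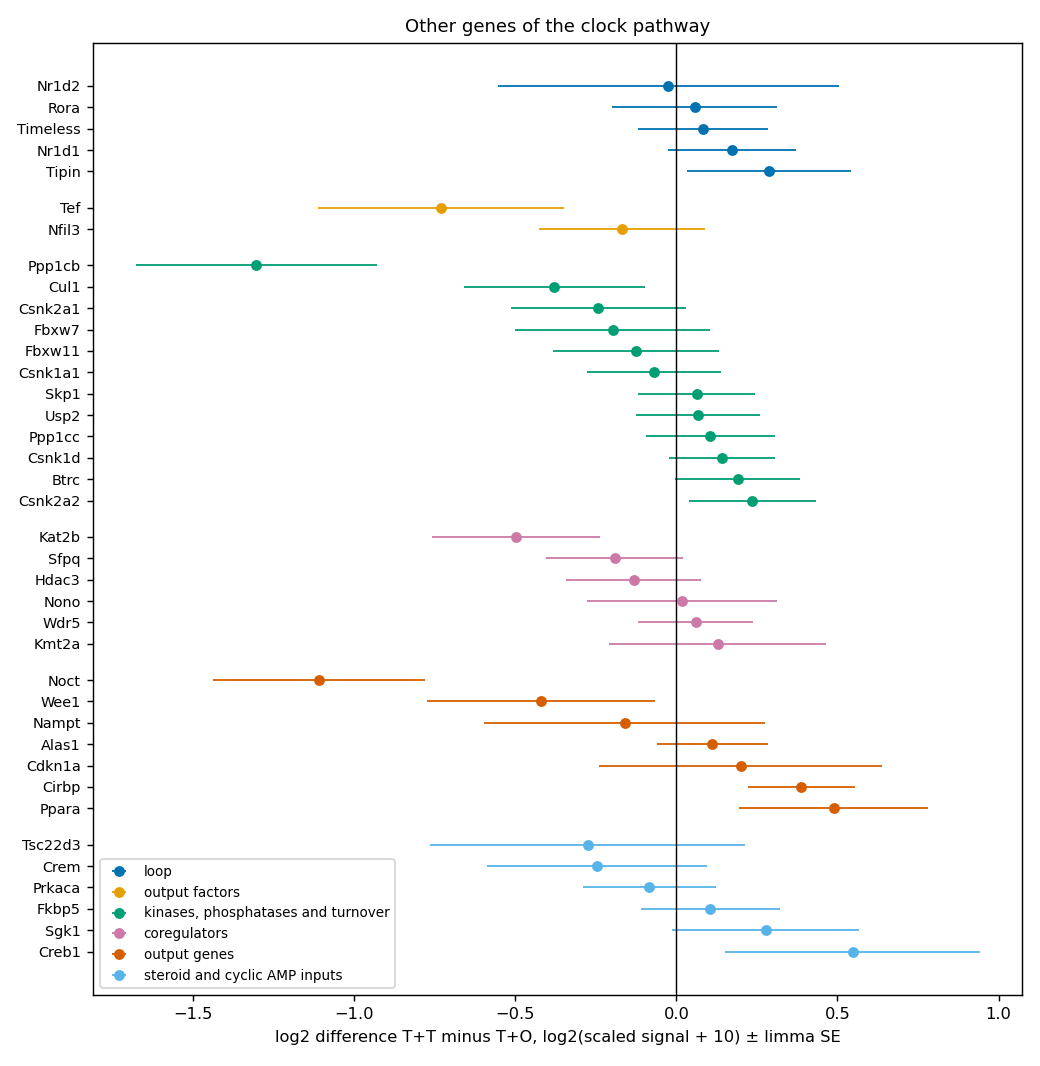
Log2 difference T+T minus T+O (horizontal axis, log2 of scaled signal plus 10) of the 38 kept clock pathway genes by role, with bars of 1 limma SE. The values run from -1.30 for Ppp1cb to 0.55 for Creb1, and no gene passed the adjusted test.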

How the data were processed

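Testis RNA of 4 samples was measured on 1-colour Affymetrix mouse arrays, named as such from the probe set names. The authors deposited 1 linear signal intensity per probe set and array. Software and scaling are not given in the sources used here. The 66 control probe sets were left out, and arrays were scaled (T+O by 0.915, the T+T arrays by 1.15, 1.33 and 0.779) to a common mean after trimming 2% at each end. After adding 10, log2 was taken. Probe sets with a mean above the 40th percentile were kept (7453 of 12422).

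Gene symbols came from the platform annotation, updated by gene ID through RefSeq (GRCm38.p6) for 10817 of 10833 probe sets with 1 symbol. A further 396 had several symbols and 1193 none. For other genes the brightest probe set above the filter was used.

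Members and lists were chosen with earlier results of these data known. The members got no test. Other genes were tested with limma 3.58.1 in R 4.3.3 (lmFit, eBayes with intensity trend, two-sided, Benjamini-Hochberg over 7453 probe sets, threshold 0.05), with 1 T+O against 3 T+T arrays, 2 residual degrees of freedom, and the lone T+O array assumed to vary like T+T. The test was run on simulated data first. Nothing in the labels says that the arrays came from separate animals, so p-values measure only how these samples vary, and precision is limited by having 4 arrays. Named were all member probe sets, pathway genes 1.5-fold apart on all T+T arrays, the 2 highest and 2 lowest genes of each role, and nearest profiles (5 for Per1, 2 for other kept members). The alternatives were other scalings, offsets and filters, leaving out each T+T array, and taking T+T replicates 2 and 3 as withdrawn.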

Additional observations from a re-analysis of the deposited data

How the results depend on the processing

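No paired analysis was possible because T+O has a single array, whose number pairs it with nothing. Per1 had a negative difference under all 9 alternatives run, from -0.9998 to -0.089, and so did Clock, from -1.27 to -0.34. The values of -0.089 and -0.34 came from taking T+T replicates 2 and 3 as withdrawn, which sets T+T replicate 1 against the other 3 arrays. The alternatives that compare T+T with T+O gave -0.9998 to -0.68 for Per1 and -1.27 to -0.52 for Clock. For both genes T+O stood above every T+T array. Leaving out a T+T array or changing the offset therefore could not turn the sign, and no alternative left out the lone T+O array. Cry2 and the kept Cry1 probe set also kept their sign under all 9. For Cry2, with T+O below every T+T array, the same limit holds. The Cry1 probe set had T+O inside the T+T values and came to -0.023 without T+T replicate 1, so its sign gives no direction. Per3 turned without scaling, Dbp turned without scaling (-0.047) and without T+T replicate 1, and Bmal1 turned under 3 alternatives. The cause was not tested. The count of members 1.5-fold apart, 1 at the main setting, was 0 without scaling, 0 with the offset at the 50th percentile of all scaled values (34.8) and 0 with T+T replicates 2 and 3 taken as withdrawn. The corresponding count of pathway genes, 2, was 0 without scaling, 0 with that reading and 4 with no filter, where more genes are counted. No pathway gene passed the adjusted test under any of the 12 alternatives. The median of the members was 0.11, -0.052 without scaling, and -0.010 to 0.13 with 1 T+T array left out (lowest without T+T replicate 1). Without scaling 6 member probe sets passed the filter in place of 5, so the median and the count there cover another set. The median of the pathway genes was 0.037, -0.16 without scaling and -0.032 with the mean of all probe sets of a gene. Without scaling the median of all kept probe sets was itself -0.16.

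Over all kept probe sets, the 2 past the adjusted threshold became 0 with quantile scaling, 0 with no filter, 0 without the intensity trend and 0 with the withdrawn reading, 6 with median scaling, 5 without scaling, 6 with the larger offset and 1 to 63 with 1 T+T array left out (63 without replicate 1, 12 without replicate 2). The 301 probe sets 1.5-fold apart on all T+T arrays became 190 without scaling (64 higher, 126 lower), 155 with the larger offset, 523 with no filter, 167 with the stricter filter (60th percentile), and 416 to 653 with 1 T+T array left out (653 without replicate 3). The withdrawn reading gave 205. The 1329 probe sets apart between T+T replicate 1 and T+O became 739 with the larger offset, 2345 with no filter and 703 with the stricter filter, and their split of 509 higher and 820 lower became 185 and 1687 without scaling. Dim signals limit what can be said of Per2, Clock, Bmal1 and 2 of the 3 Cry1 probe sets.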
